A study of Homo sapiens with 4 samples.

Results

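The SLC25 carriers are the proteins that move metabolites, nucleotides and cofactors across the inner mitochondrial membrane. They were taken here as every row of the count table whose symbol is SLC25A followed by digits only, a rule that uses no measured value. That gave 48 of 26364 gene symbols. The mRNAs were sequenced from polysomes, which are mRNAs loaded with ribosomes and separated on a sucrose gradient by how many ribosomes they carry. The cells were HCT116, a human colorectal carcinoma line, either wild type or labelled as a Dicer1 knockout, with no further treatment named. DICER1 is the enzyme that cuts microRNA precursors. Each genotype gave a heavy library (mRNAs with at least 10 ribosomes) and a light library (at most 9), so there were 4 libraries, 1 per group. The labels do not say whether the heavy and light libraries of a genotype came from the same gradient, and this is assumed where a gradient is named below. How the knockout was made, and whether its cells are a single clone, is not given in the sources used here.

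As background, nuclear genes encode the carriers, cytosolic ribosomes translate them, and the TOM and TIM22 complexes insert them into the mitochondrion. Most share 1 compact fold and so have coding sequences of nearly the same length, while a few carry an added calcium-binding part. ADP/ATP carriers exchange the ATP made in the mitochondrion for cytosolic ADP, the phosphate carrier supplies phosphate for ATP synthesis, and others serve the malate-aspartate shuttle, citrate export, the urea cycle or iron delivery. A longer coding sequence can hold more ribosomes, so a family of like length shows how mRNAs differ in ribosome load apart from length.

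The ADP/ATP carriers are shown because their proteins are much alike while their mRNAs lay apart on the gradients. The stretch below is the coding sequence around their signature of 3 arginine and 3 methionine codons, which is held by 4 of the 48 members and is shown in capitals. It was read from GENCODE release 44 transcripts (GRCh38), in the sense of the mRNA, from coding base 697 to 726, or 733 to 762 in SLC25A31.
SLC25A4: actgttCGTCGTAGAATGATGATGcagtcc
SLC25A5: actgttCGCCGCCGCATGATGATGcagtca
SLC25A6: acggtgCGGCGGCGCATGATGATGcagtcc
SLC25A31: acagttAGAAGACGTATGATGATGcagagt
The arginine codons differ between the genes although the encoded residues are the same. Over the full coding sequences of 897 nucleotides, SLC25A4 and SLC25A5 encoded the same residue at 265 of 298 codons but shared only 134 codons. Their bases were identical at 77.3% of positions, with a longest identical run of 14 bases. No 50-base window of the SLC25A4 transcript occurred in a transcript of another gene. For SLC25A5 14.8% of windows did, mostly in its antisense transcript SLC25A5-AS1 on the opposite strand, and since the strand setting is not known, reads of the overlap may belong to either gene. SLC25A4 lies on chromosome 4 (185143266 to 185150382, plus strand), SLC25A5 on chromosome X (119468422 to 119471396, plus strand) and SLC25A31 on chromosome 4 (127730400 to 127774292, plus strand).

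SLC25A6, another widely expressed ADP/ATP carrier, was listed at 0 in all 4 libraries. It lies in the pseudoautosomal region of chromosome X (1386152 to 1392113, minus strand), which has an identical copy on chromosome Y, and 100% of its 50-base windows occurred in the transcript of that copy. Of 17 protein-coding genes of the pseudoautosomal regions in the table, 16 were listed at 0 in all 4 libraries, and the highest count of the other, CD99, was 1. The value of SLC25A6 therefore cannot be read as its level in these cells. SLC25A31, an ADP/ATP carrier known from testis, had 1 count in wild type heavy polysomes and 0 in the other 3 libraries. A count of 0 allows up to 3 counts, which puts its level at no more than 0.172 CPM, a count relative to the library total, in the labelled knockout light library, the shallowest.

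Library totals ran from 17457116 to 20933675 counts, and the row of ribosomal RNA took 2.61 to 5.97% of them. DICER1 itself had 500 and 925 counts in the heavy libraries of wild type and labelled knockout cells and 547 and 889 in the light ones. Its mRNA was thus higher in the libraries labelled knockout, at log2 ratios of 0.95 (heavy) and 0.96 (light), which was not tested. Whole-gene counts cannot tell whether a working enzyme is made, and the directions between genotypes below rest on the label. The epithelial genes EPCAM, KRT8, KRT18, KRT19 and CDH1 were each at 719 counts or more, while VIL1 was at 0 throughout and LGALS4 had at most 1. Of 12 fibroblast, endothelial and blood markers, COL1A1 had 206 to 911 counts and no other had more than 16 (VWF).

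The family took 0.326 to 0.386% of the counts of a library, and a pair of members dominated it. SLC25A5 and SLC25A3, the phosphate carrier, together held 61.3% of the family's counts in wild type heavy and 54.4% in labelled knockout heavy polysomes, and 37.9% and 37.2% in the light libraries. Of the 48 members, 40 passed the filter on low counts, and 35 of these reached 50 counts in every library. The 8 that did not pass had at most 9 counts in any library. They were SLC25A2, SLC25A6, SLC25A18, SLC25A31, SLC25A34, SLC25A47, SLC25A52 and SLC25A53. SLC25A2, an ornithine carrier, joined SLC25A6 at 0 throughout. SLC25A52 is uncertain, since its coding sequence was 97.7% identical to that of SLC25A51.

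Levels were compared between members as TMM-scaled CPM per kilobase of coding sequence. SLC25A5 had a mean of 978 over the 4 libraries, with a range from 735 to 1439, and SLC25A3 a mean of 787, with a range from 517 to 1114. The ranges over the libraries overlap, but within each library SLC25A5 stood above SLC25A3. The values were closest in labelled knockout heavy polysomes (990 against 918), and the difference was not tested. Next came SLC25A39, which supplies the mitochondrion with glutathione, at 367 (218.5 to 496), and SLC25A1, the citrate carrier, at 283 (256 to 308), again with overlapping ranges. SLC25A4 followed at 122 (96.2 to 159), so the heart and muscle form of the ADP/ATP carrier stood below SLC25A5 in every library. Per kilobase of the whole canonical transcript, 9 of the 10 highest members were the same, but SLC25A4 moved from place 5 to place 10 and SLC25A3 from place 2 to place 4.

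**Figure D1:**
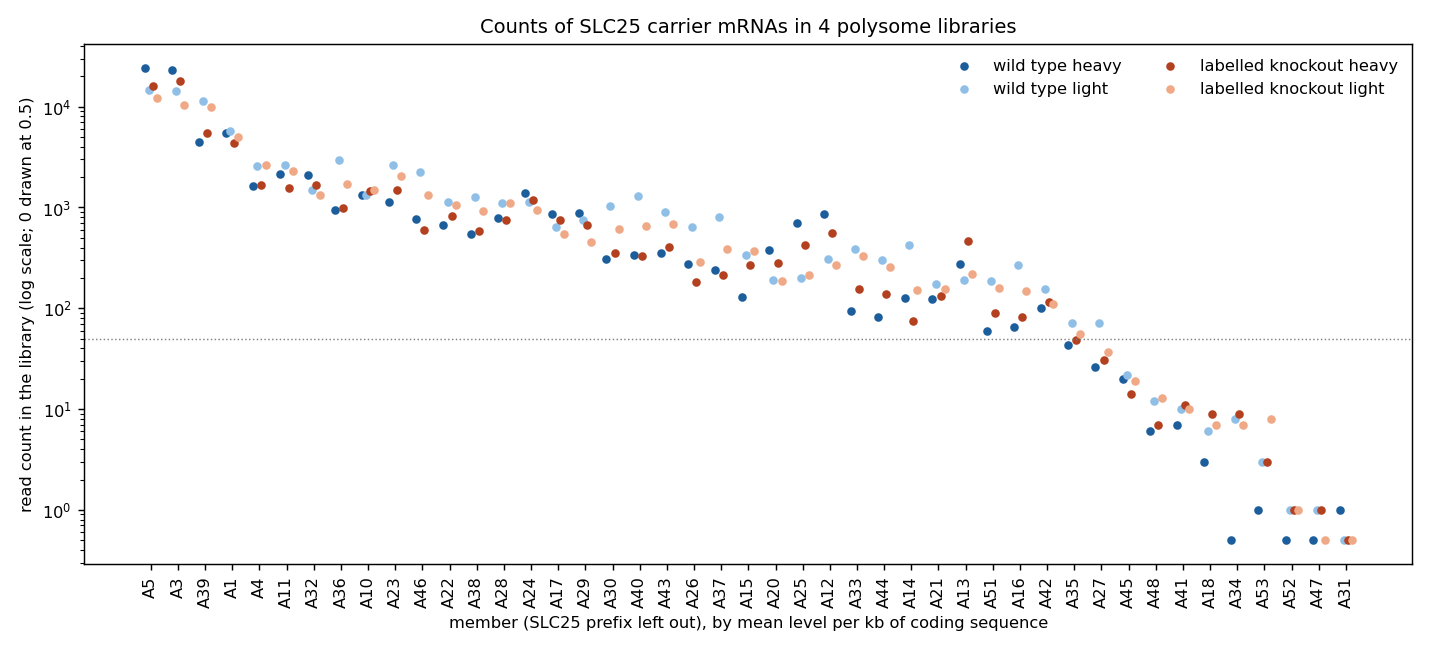
Read counts of 45 of the 46 members with any count, in each of the 4 libraries (1 point per library, log axis, 0 drawn at 0.5), ordered by mean level per kilobase of coding sequence. SLC25A5 and SLC25A3 stand at the top with 10314 counts or more, light points lie above heavy ones for most members in the middle, and the dotted line marks 50 counts.

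The first comparison asked which carrier mRNAs lie in heavy and which in light polysomes. More carrier mRNAs were called light than heavy: of the 40 members tested, 17 were called light, 6 heavy and 17 neither. Over all 13574 genes tested, 29.3% were called light and 30% heavy, so the light share of the members (42.5%) lay above that of all genes and the heavy share (15%) below it. The total called, 57.5% of members, was close to the 59.3% of all genes. The median fitted log2 heavy to light ratio was -0.49 over the members tested and -0.07 over all genes tested. All 17 light members had a ratio below 0 in both gradients, and all 6 heavy members above 0. The calls were made on these same gradients, so this agreement is not separate support for them. The test was edgeR's quasi-likelihood test over all genes with the genotype as a block and Benjamini-Hochberg adjustment, called under 0.05. With 1 library per group, its spread comes from the disagreement between the genotypes, shared over genes by the fit. A gene's SE and p-value therefore do not measure how well the genotypes agree for that gene. SLC25A3 had log2 ratios of 0.89 (wild type) and 0.83 (labelled knockout) and an SE of 0.32. SLC25A25 had 2.02 and 1.02 and an SE of 0.27. Heavy and light are relative to the scaling: with library totals alone the median of all genes moved to -0.30, that of the members to -0.72, and the share of heavy genes among all called genes went from 50.6% to 38.9%. That scaling called 5 members heavy and 21 light, beside 23.5% and 37% of all genes. The other settings gave 6 heavy and 17 light members with DESeq2 size factors (30.7% and 27.7% of all genes), without the filter (21.9% and 19.6%) and with DESeq2 (28.3% and 23%). Without the block the counts were 4 and 14, beside 21% and 16.1%.

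**Figure D2:**
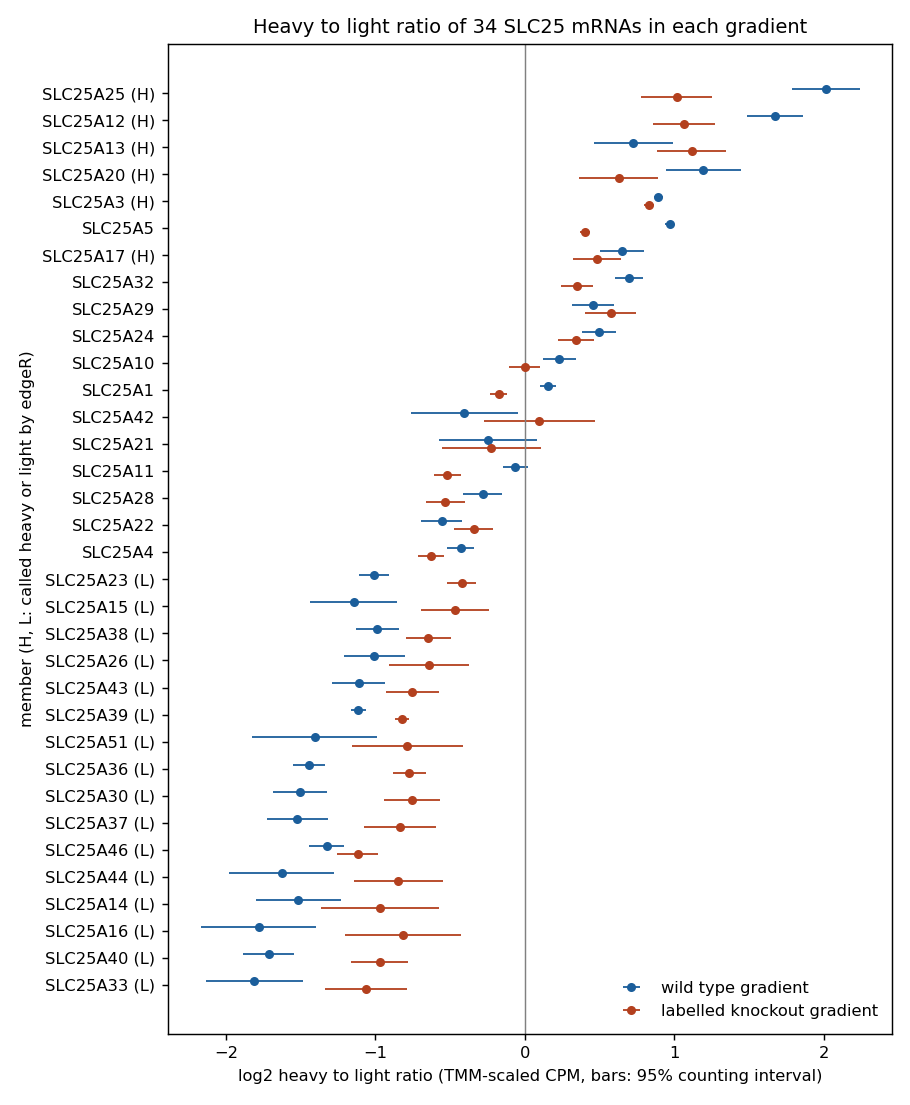
Log2 heavy to light ratio of 34 of the 35 members with at least 50 counts in each library, in the wild type gradient (blue) and the labelled knockout gradient (red), with 95% counting intervals. The members run from SLC25A33 at the bottom to SLC25A25 at the top, H and L mark those called by edgeR, and the red points lie closer to 0 at both ends.

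Among the carriers of adenine nucleotides and phosphate, 11 of 14 were tested, with 3 called heavy and 3 light. SLC25A3, the phosphate carrier on chromosome 12, had 22894 counts in wild type heavy against 14338 in wild type light polysomes, and 18053 against 10314 in the labelled knockout. It was higher in heavy polysomes of both gradients, with a fitted log2 ratio of 0.86 (SE 0.32, edgeR adjusted p = 0.0147). SLC25A5, the ADP/ATP carrier of proliferating cells, had 24424 against 14530 counts in the wild type and 16084 against 12328 in the labelled knockout. Its fitted ratio of 0.69 (SE 0.32) missed the threshold (edgeR adjusted p = 0.0550), and DESeq2 called it (adjusted p = 0.0219). SLC25A4 had 1632 against 2560 counts in the wild type and 1666 against 2618 in the labelled knockout. The ratio of SLC25A4 was thus on the other side of 0 in both gradients (fitted log2 ratio -0.53, SE 0.28, edgeR adjusted p = 0.0852). The log2 ratio of SLC25A5 exceeded that of SLC25A4 by 1.40 in the wild type (counting interval 1.30 to 1.49) and by 1.04 in the labelled knockout (0.94 to 1.13). These are the genes of the stretch shown above, with the same coding length of 897 nucleotides. Their 3′ UTRs differ in the annotation used, with 338 nucleotides in SLC25A5 and 3411 in SLC25A4.

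The ATP-Mg/phosphate carriers SLC25A23, SLC25A24 and SLC25A25 hold calcium-binding domains and adjust the adenine nucleotide pool of the mitochondrion. They spread over most of the family's range. SLC25A25 had 700 against 200 counts in wild type heavy and light polysomes and 428 against 214 in the labelled knockout. That was the largest heavy ratio of the family (log2 1.53, SE 0.27, edgeR adjusted p = 9.06e-08), although 15.5% of its exonic bases overlap SLC25A25-AS1 on the opposite strand. SLC25A23 had 1130 against 2646 counts in the wild type and 1498 against 2038 in the labelled knockout and was called light (-0.71, SE 0.27, edgeR adjusted p = 0.0176), though not without the block (adjusted p = 0.0786). SLC25A24 stood between them at 0.42 and was not called. Their coding lengths are alike, with 1548 nucleotides for SLC25A25, 1434 for SLC25A24 and 1407 for SLC25A23. The log2 ratios of SLC25A25 and SLC25A23 differed by 3.02 in the wild type (counting interval 2.77 to 3.27) and by 1.44 in the labelled knockout (1.18 to 1.69). SLC25A41, grouped with the ATP-Mg/phosphate carriers but with a shorter coding sequence of 1113 nucleotides, had at most 11 counts in a library.

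SLC25A17, a carrier of cofactors in the peroxisomal membrane, had 866 against 641 counts in the wild type and 750 against 544 in the labelled knockout. Its call as heavy was the weakest of the 6 (log2 0.57, SE 0.26, edgeR adjusted p = 0.0462) and was lost with library totals alone (log2 0.34), without the filter, without the block and with DESeq2 (adjusted p = 0.0580). SLC25A16 and SLC25A42, both linked to coenzyme A, went apart. SLC25A16 had 65 against 266 counts in the wild type and 82 against 148 in the labelled knockout and was called light (-1.32, SE 0.29, edgeR adjusted p = 2.54e-05), while SLC25A42 stood at -0.16 and was not called. SLC25A51, which carries NAD+, was called light at -1.11, with 41.6% of its 50-base windows also found in other genes, mostly SLC25A52.

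Carriers of pyrimidine nucleotides, vitamins and cofactors had 6 of 7 members called light and none heavy, beside 29.3% and 30% of all genes. Their median log2 ratio was -0.97, with a range from -1.44 to 0.52. SLC25A33, a pyrimidine nucleotide carrier on chromosome 1, had 93 against 386 counts in the wild type and 155 against 331 in the labelled knockout. Its light counts exceeded its heavy counts in both gradients, and its ratio was the lowest of the family (-1.44, SE 0.27, edgeR adjusted p = 8.08e-07). SLC25A36, a related pyrimidine nucleotide carrier, stood at -1.11. SLC25A40 and SLC25A39, both tied to mitochondrial glutathione, were called light too. SLC25A40 had 337 against 1294 counts in the wild type and 328 against 655 in the labelled knockout (-1.35, SE 0.26, edgeR adjusted p = 1.88e-06), and the far more abundant SLC25A39 stood at -0.97. SLC25A26, the S-adenosylmethionine carrier, was at -0.84 and was not called without the block (edgeR adjusted p = 0.0878). SLC25A32, the folate and FAD carrier, was the exception at 0.52 (edgeR adjusted p = 0.0827). Its reads are uncertain, since a readthrough gene on the same strand shares 69.7% of its exonic bases.

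None of the 4 carriers of di- and tricarboxylates was called, and their ratios lay between -0.29 and 0.11. They were SLC25A1 for citrate at -0.01, SLC25A10 for dicarboxylates at 0.11, SLC25A11 for 2-oxoglutarate and malate at -0.29 and SLC25A21 for oxodicarboxylates at -0.24. SLC25A1, for example, had 5459 against 5709 counts in the wild type and 4338 against 4975 in the labelled knockout. Scaling decided the sign of the smallest: SLC25A1 was at 0.02 with DESeq2 size factors, and SLC25A10 at -0.12 with library totals. Of the other limits, 46.6% of the exonic bases of SLC25A10 lie in another gene on the same strand, and 37.2% of those of SLC25A21 overlap genes on the opposite strand, mainly PAX9.

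The carriers of aspartate, glutamate, other amino acids and carnitine split, with 3 of 8 tested called heavy and 3 light. SLC25A12 and SLC25A13, the calcium-regulated aspartate/glutamate carriers of the malate-aspartate shuttle, were both heavy and have the longest coding sequences of the family (2037 and 2028 nucleotides). SLC25A12 had 855 against 310 counts in the wild type and 558 against 270 in the labelled knockout (log2 1.38, SE 0.26, edgeR adjusted p = 9.56e-07). SLC25A13 had 274 against 192 counts in the wild type and 468 against 218 in the labelled knockout (0.93, SE 0.26, edgeR adjusted p = 0.00108), and was not called without the block (adjusted p = 0.0624). SLC25A20, the carnitine/acylcarnitine carrier needed for fatty acid oxidation, was heavy in spite of a coding length of only 906 nucleotides. It had 380 against 192 counts in the wild type and 284 against 186 in the labelled knockout (0.92, SE 0.26, edgeR adjusted p = 0.00132).

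On the light side of this group stood SLC25A44, a carrier of branched-chain amino acids, SLC25A38, a glycine carrier needed for heme synthesis, and SLC25A15, the ornithine carrier of the urea cycle. SLC25A44 had 82 against 300 counts in the wild type and 140 against 257 in the labelled knockout (-1.24, SE 0.27, edgeR adjusted p = 3.05e-05). SLC25A38 was at -0.82 and SLC25A15 at -0.80, the latter not called without the block (adjusted p = 0.170). The glutamate carrier SLC25A22 at -0.45 and the basic amino acid carrier SLC25A29 at 0.51 were not called.

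The mitoferrins, which bring iron into the mitochondrion, differed. SLC25A37, best known from erythroid cells, had 242 against 814 counts in the wild type and 213 against 387 in the labelled knockout and was called light (-1.19, SE 0.26, edgeR adjusted p = 2.66e-05). SLC25A28, the form of other tissues, stood at -0.41 and was not called (edgeR adjusted p = 0.168). Their difference was 1.24 on the log2 scale in the wild type (counting interval 0.99 to 1.48) and 0.30 in the labelled knockout (0.03 to 0.58).

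Of the members related to the uncoupling proteins, SLC25A14 and SLC25A30 were called light. SLC25A14 had 126 against 424 counts in the wild type and 75 against 151 in the labelled knockout (-1.28, SE 0.28, edgeR adjusted p = 2.18e-05). SLC25A30 had 310 against 1028 counts in the wild type and 353 against 607 in the labelled knockout (-1.14, SE 0.26, edgeR adjusted p = 5.36e-05). SLC25A27, with 26 to 71 counts, stood at -0.75 and was not called. SLC25A46, which sits in the outer membrane and acts in mitochondrial shape, had 765 against 2238 counts in the wild type and 604 against 1335 in the labelled knockout. It was light in both gradients (-1.23, SE 0.27, edgeR adjusted p = 2.70e-05) although its coding sequence of 1257 nucleotides is among the longer ones. Of the members with an unsettled or recently assigned substrate, SLC25A43 was called light at -0.94, and SLC25A35, SLC25A45 and SLC25A48, each under 50 counts in at least 1 library, were not called (-0.33, -0.15 and -0.82).

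Most carriers have coding sequences of nearly the same length. Of the members tested, 34 had coding sequences of 825 to 1113 nucleotides. Their median log2 ratio was -0.64, with 3 called heavy (8.82%) and 15 light (44.1%). Over the 1730 genes tested with coding sequences of the same lengths, the median was -0.26, with 19.1% called heavy and 31% light. The other 6 members, from 1257 to 2037 nucleotides, had 3 heavy and 2 light calls and a median of 0.68. Over 3420 genes of those lengths the median was 0.27, with 38.9% called heavy and 16.1% light. Across the 35 members with at least 50 counts in each library, Spearman's rho between coding length and the fitted ratio was 0.07 and Pearson's r 0.48. Across the 29 of them below 1200 nucleotides rho was -0.27 and r -0.13. Across 10582 genes rho was 0.57. The annotated 5′ UTR was shorter in the heavy members (median 88 nucleotides, range 30 to 142) than in the light ones (median 157, range 47 to 358), with overlapping ranges. In the 17 members not called it had the longest median, 170 nucleotides (range 63 to 593). Spearman's rho of the ratio with 5′ UTR length was -0.41 over the 35 members and -0.13 over all genes. For the 3′ UTR it was -0.24 and -0.03, and for the share of G or C at the last base of codons 0.21 and 0.02. These are descriptions across genes of the same 4 libraries, and the UTRs used in these cells were not measured.

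**Figure D3:**
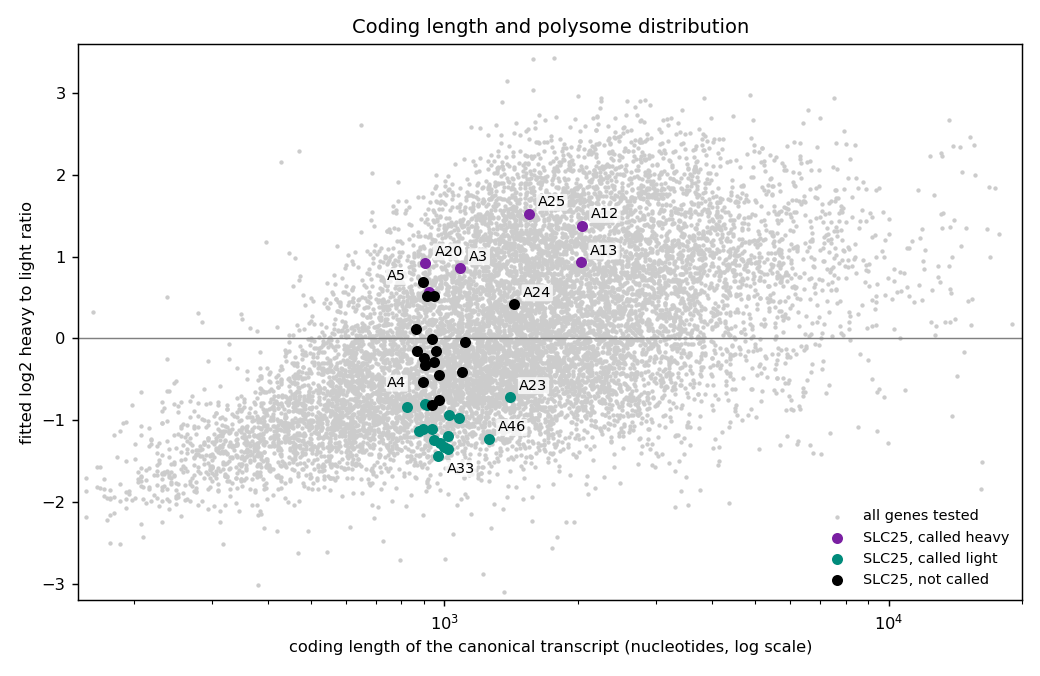
Fitted log2 heavy to light ratio against coding length of the canonical transcript (log axis) for all genes tested (grey, drawn within the axes shown) and for 39 of the 40 members tested (coloured by call, some named without the SLC25 prefix). Most members form a narrow column of 825 to 1113 nucleotides that runs from -1.44 to 0.92, with SLC25A5 and SLC25A4 at the same length.

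Genes that work with the carriers lay differently. The shares to set beside both lists below are 29.3% light and 30% heavy over all genes. No share of genes with coding lengths like theirs is given. Of 16 mRNAs of the TOM and TIM22 import route, 12 were called light and 2 heavy, with a median log2 ratio of -1.34. The 12 light ones have coding sequences of 156 to 585 nucleotides, and the heavy ones of 1269 and 1827. The heavy pair were TOMM70A, the receptor for carrier precursors, at 0.92 and the TIM22 subunit AGK at 1.43. The small intermembrane chaperones TIMM9 and TIMM10 stood at -1.70 and -1.45, and TIMM22 itself at -0.94. Of 18 mRNAs of enzymes that use or supply carrier substrates, 13 were called heavy and 1 light (median 1.20). Among them were MDH1 at 1.93, GOT1 at 1.92 and GOT2 at 2.02, which complete the malate-aspartate shuttle, and ACLY, which cleaves exported citrate, at 2.30. The coding sequences of MDH1 and MDH2 (1005 and 1017 nucleotides) are within the range of the short carriers, and MDH2 stood at 1.39. So are those of MTHFD2 and OTC (1053 and 1065 nucleotides), and MTHFD2 stood at 0.50 and was not called. The other enzymes called heavy have coding sequences of 1242 nucleotides or more. The light call was OTC, with at most 12 counts in a library. The family proteins named otherwise gave 1 light call of 4 tested, UCP2 at -1.22, while MTCH1 at -0.62 and MTCH2 at 0.09 were not called.

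The second comparison, made in each fraction, was of labelled knockout and wild type cells, which asks how carrier mRNAs differ between these cells. It has 1 library on each side, no replicate check and no test, and a higher count cannot tell more mRNA per cell from a larger share of the same mRNA on ribosomes. Few carrier mRNAs differed by 1.5-fold in both fractions. Counted here were 33 members whose larger count reached 100 in both pairs, and of these 1 was lower and 0 were higher in the libraries labelled knockout. Over 10418 genes, 4.46% were lower and 4.26% higher by this measure, so the members' share is near that of all genes. Over the 35 members the median log2 genotype ratio (labelled knockout over wild type) was 0.09 in heavy and 0.02 in light polysomes, beside -0.03 and 0.02 over 10834 genes. In both fractions 11 of the 35 were above 0 and 7 below.

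The lower member was SLC25A14, with the counts given above. Its log2 ratio was -0.67 in heavy (counting interval -1.08 to -0.26) and -1.22 in light ones (-1.48 to -0.95). SLC25A26 came next, with 272 and 183 counts in heavy and 640 and 291 in light polysomes for wild type and labelled knockout (-0.50, interval -0.77 to -0.23, and -0.87, -1.07 to -0.67). SLC25A29 followed, with 877 and 671 counts in heavy and 745 and 457 in light polysomes (-0.32 and -0.44). In all of these each library labelled knockout was below its wild type partner. On the other side stood SLC25A13 and SLC25A15. SLC25A13 had the log2 ratios 0.83 in heavy (interval 0.62 to 1.05) and 0.44 in light ones (0.16 to 0.72). SLC25A15 had 130 and 266 counts in heavy and 338 and 374 in light polysomes for wild type and labelled knockout (1.08, interval 0.78 to 1.39, and 0.41, 0.19 to 0.62). SLC25A10, with 1338 and 1460 counts in heavy and 1328 and 1484 in light polysomes, ranked next by the smaller of its ratios (0.19 and 0.42).

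Single fractions showed more members past 1.5-fold. In heavy polysomes 4 of 33 were higher, SLC25A13, SLC25A15, SLC25A33 (0.79) and SLC25A44 (0.82), beside 10.6% of all genes, and 2 were lower, SLC25A14 and SLC25A25 (-0.64), beside 9.65%. In light polysomes 0 were higher, beside 14.8% of all genes, and 4 were lower, SLC25A14, SLC25A26, SLC25A37 (-0.81) and SLC25A40 (-0.72), beside 9.95%. SLC25A5, the most abundant member, stood at -0.54 in heavy and 0.02 in light polysomes, SLC25A3 at -0.28 and -0.21, and SLC25A4 at 0.09 and 0.29.

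**Figure D4:**
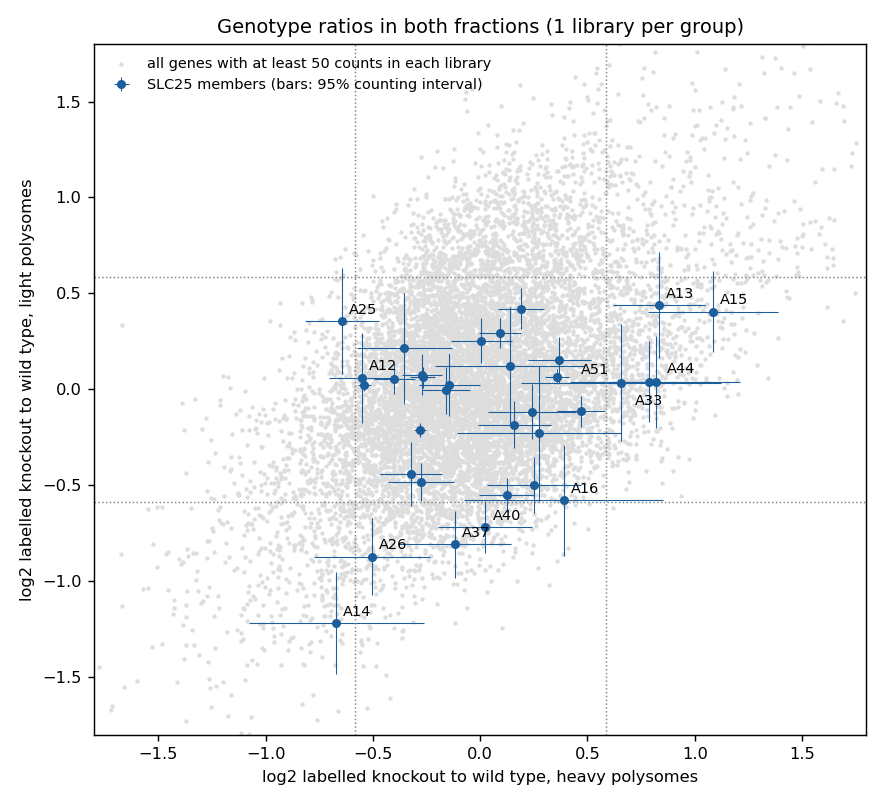
Log2 genotype ratio (labelled knockout over wild type) in heavy (x axis) and light polysomes (y axis) for 34 of the 35 members with at least 50 counts in each library (blue, with 95% counting intervals) over all genes with that depth (grey, drawn within the axes shown). Dotted lines mark 1.5-fold, and SLC25A14 alone lies beyond them in both fractions.

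The heavy to light ratios of the family spanned a narrower range in the labelled knockout gradient. Over the 35 members they ran from -1.81 to 2.02 in the wild type, with an SD across genes of 1.08, and from -1.12 to 1.12 in the labelled knockout, with an SD of 0.67. All genes narrowed too, with an SD that went from 1.17 (wild type) to 0.90 (labelled knockout) over 10834 genes. The shift, which is the log2 ratio of heavy to light in labelled knockout cells less the wild type ratio, was past 1.5-fold toward heavy with an interval excluding 0 in 10 of 35 members, beside 10.5% of all genes. It was past 1.5-fold toward light in 2, beside 15.3%. All 10 were members called light, and both of the others were called heavy, so each moved in the direction of the narrowing. The shares of all genes mix light and heavy ones. No share among genes called light is given, so the members' number cannot be set against genes of like ratio. With library totals alone the median shift of all genes moved from -0.05 to 0.09. The separation of the gradients, the genotype and the sample preparation cannot be told apart with 1 pair of libraries per genotype.

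The largest shift toward heavy was that of SLC25A16 at 0.97 (counting interval 0.42 to 1.51), followed by SLC25A44 at 0.78 (0.33 to 1.24), SLC25A33 at 0.75 (0.32 to 1.17) and SLC25A30 at 0.75 (0.48 to 1.01). In SLC25A33 and SLC25A44 the heavy count was higher in the labelled knockout than in the wild type, while the light ratios of 0.04 in each had intervals that include 0. In SLC25A30 the light count was lower (log2 ratio -0.50, interval -0.64 to -0.35). Toward light, SLC25A25 stood at -0.999 (-1.33 to -0.67), SLC25A12 at -0.61 (-0.89 to -0.33), SLC25A20 at -0.57 (-0.93 to -0.20) and SLC25A5 at -0.56 (-0.61 to -0.52). The aspartate/glutamate carriers went apart: SLC25A13 moved toward heavy (0.39, 0.04 to 0.74) where SLC25A12 moved toward light. In the wild type the ratio of SLC25A12 exceeded that of SLC25A13 by 0.95 (0.63 to 1.27), and in the labelled knockout they differed by -0.05 (-0.36 to 0.26).

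MicroRNA sites were looked for in the annotated 3′ UTRs, since a cell without DICER1 lacks most mature microRNAs, which repress mRNAs mainly through sites that pair with the seed near their 5′ end. Sites of 11 microRNA families were searched in the 35 members, after the genotype values were known. The family printed first is the one whose site was in all 4 members past 1.5-fold higher in heavy polysomes. By contrast, let-7 is shown because its site was in none of them, which also held for miR-92a and miR-30a. The microRNA sequences are from RefSeq (GRCh38.p14), with bases 2 to 8, the seed, in capitals.
hsa-miR-17-5p: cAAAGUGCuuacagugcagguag
hsa-let-7a-5p: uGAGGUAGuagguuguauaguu
A site was GCACTTT or CACTTTA for miR-17 and CTACCTC or TACCTCA for let-7, read on the mRNA strand only. The first of each pair of forms matches bases 2 to 8, and the second matches bases 2 to 7 and ends in an A, as in the SLC25A13 site below. For each microRNA the letters can overlap by 6 bases and count once per gene. The miR-17 letters were in 13 of 35 members (37.1%), beside 32.1% of the 10553 3′ UTRs of genes with that depth. Those of let-7 were in 8 members (22.9%), beside 18.1%.

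The miR-17 sites of 3 of the 4 members are printed with the matching letters in capitals, from the 3′ UTR of the canonical transcript.
SLC25A13: acttgcttttaaaatcCACTTTAt
SLC25A33: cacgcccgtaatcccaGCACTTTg
SLC25A44: ttgtttatcccttcctGCACTTTg
In GRCh38 they are at chr7:96120335-96120358 (minus strand), chr1:9582960-9582983 and chr1:156212054-156212077 (plus strand). SLC25A33 holds another such site at chr1:9583728-9583751. The letters around the SLC25A33 sites are those of Alu repeats, elements copied throughout the human genome, and 21.6% of the 50-base windows of its transcript occurred in transcripts of other genes. Both families were picked by these members' heavy ratios, so a contrast of members with and without the letters would be set by that choice, and none is given. The 13 members with the miR-17 letters ran from -0.28 to 1.08 in heavy polysomes. They include the 4 members that picked the family, so the upper end was set by that choice. Over all genes the median genotype ratios in heavy polysomes were 0.08 with and -0.08 without the miR-17 letters, and 0.05 with and -0.05 without those of let-7. This was not particular to them. Across the 11 families searched the medians ran from 0.03 to 0.08 with and from -0.08 to -0.05 without the letters. In light polysomes they were 0.06 with and 0.01 without for miR-17, and 0.04 and 0.02 for let-7. The 3′ UTRs with the letters were longer, with medians over all genes of 2872 against 877 nucleotides for miR-17 and 3085 against 1105 for let-7. A match of letters is not a site shown to act, and the part of 3′ UTR length in these medians was not tested.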

How the data were processed

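Polysome RNA of HCT116 cells was sequenced in 4 libraries. The authors deposited whole-number read counts per gene symbol, and their totals differ between libraries, so no normalization is visible. Per the submitters' processing notes, the tools and build were CASAVA, STAR, HTSeq and hg19. Tool versions, the annotation and the handling of strand were not given in the sources used here. The members, gene lists and tests were chosen with earlier results of these data known.

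Heavy against light was fitted over the whole table with edgeR 4.0.16 (R 4.3.3, TMM, filterByExpr, quasi-likelihood test, genotype as block, 1 residual degree of freedom). A self-test on simulated counts was run. Nothing shows that libraries are separate cultures, so p-values may measure technical spread. Genotype ratios are log2 ratios of TMM-scaled CPM with a prior count of 2 and 95% counting intervals, which cover counting error only, since PCR copies are counted as reads. Members with at least 50 counts in each library were all named, except 1 that is not reported here by name or drawn but is in all counts and medians. Counts in every library were printed for adenine nucleotide and phosphate carriers, the called members with the largest folds (up to 8 on either side), the 3 highest and 3 lowest genotype ratios and the 4 largest shifts each way. GENCODE release 44 (GRCh38) held 24202 of the symbols, 22828 by the same name and the others by a RefSeq synonym. Positions, lengths and exon overlaps are from GENCODE, and shared windows are 50 bases long. Alternatives were other scalings, filters, priors and count minimums, DESeq2 1.42.0, and no block. Other steps used scipy 1.17.1, pandas 2.3.3, numpy 2.4.6 and Python 3.11.15.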

Additional observations from a re-analysis of the deposited data

Results flagged for a closer look

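SLC25A1, the citrate carrier, lay on opposite sides of 0 in the gradients. Its log2 heavy to light ratio was 0.16 in the wild type (counting interval 0.10 to 0.21) and -0.18 in the labelled knockout (-0.23 to -0.12). With 1 library per group the difference was not tested. With library totals alone both ratios were below 0 (-0.15 and -0.34).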

How the results depend on the processing

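Members called heavy numbered 4 to 6, and members called light 14 to 21, over the alternatives run (other scalings, no filter, DESeq2, no replicate block, and without members that share over 25% of their exons or windows with another gene, an alternative added after seeing the data). With no replicate block 4 members were called heavy and 14 light, and over all genes 2857 heavy and 2183 light, against 4074 and 3977 with the genotype as the block. With library totals alone SLC25A4, SLC25A22, SLC25A27 and SLC25A28 were called light as well, and the members' median moved to -0.72. The members' median was -0.52 in the wild type gradient alone and -0.44 in the labelled knockout gradient alone. A count of calls from a single gradient was not possible, since it leaves no residual degree of freedom. Direction changed in SLC25A1 (0.0244 with DESeq2 size factors, 0.0168 without the filter and 0.0244 with DESeq2) and SLC25A10 (-0.12 with library totals), neither of which was called. With a single gradient the sign also turned in SLC25A41 (0.14, labelled knockout), SLC25A42 (0.10, labelled knockout), SLC25A45 (0.07, wild type), SLC25A1 (0.16, wild type) and SLC25A10 (-0.0015, labelled knockout), none of them called. With heavy and light libraries added together, 2 members (SLC25A13 and SLC25A15) were 1.5-fold higher and 3 (SLC25A14, SLC25A26 and SLC25A37) lower in the labelled knockout. The share of all genes by this added measure is not given, so these numbers of members cannot be set against it. Doubling the count minimum left 0 lower, because it drops SLC25A14, and 6 with a shift toward heavy. Shifts toward light numbered 4 with DESeq2 size factors, and 1 with library totals, also with ribosomal RNA left out. Depth limits the 5 tested members with under 50 counts in a library.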

Other observations

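Mitochondrial transporters and channels outside the family, listed with the carriers, split. Of 18 mRNAs tested, 5 were called heavy and 4 light, beside 30% and 29.3% of all genes. Their median log2 heavy to light ratio was 0.08. The parts of the calcium uniporter lay apart: the pore MCU stood at 0.97 and its regulator MICU2 at 1.69, while the small subunit SMDT1 stood at -1.74. The pyruvate carrier subunits MPC1 and MPC2, which are short proteins, stood at -1.45 and -1.68. The outer membrane channels VDAC3 and VDAC2 were called in opposite directions at 0.90 and -0.65, with VDAC1 at 0.46 not called.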
